A study of Mus musculus with 24 samples.

Results

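Immortalized mouse embryonic fibroblasts (MEFs) lacking both Myc and Mlx, termed double knockout (DKO), were compared with immortalized wild-type (WT) MEFs by RNA-seq, with 3 libraries in each group out of 24 libraries in the series. Every gene that reached at least 1 CPM (reads of a gene scaled to a common library size) in at least 3 of the 12 immortalized libraries was compared, which gave 12880 of the 41710 genes listed. At that limit, Ccdc173 and Col11a2 entered with 1.0009 CPM in their third-highest library, and 2810403D21Rik and 2810454H06Rik stayed out with 0.9987 CPM. Libraries are named here by the numbers of their deposited columns, WT libraries 2, 3 and 4 and DKO libraries 13, 14 and 15, and values are always given in that order. Both groups came from embryos of about embryonic day 14 to 16, pooled from at least 6, with floxed Myc and/or Mlx alleles and a CreER recombinase driven by the ubiquitously active ROSA26 promoter. A lentivirus that carried SV40 T-antigen, which is known to inactivate p53 and the Rb family, together with a blasticidin resistance gene was applied to both groups (MOI of 1, 72 h), and survivors were selected with blasticidin at 1 μg/ml for 5 days and 2 μg/ml for 10 days. DKO cells then had both genes excised with 4-hydroxytamoxifen (4OHT, 500 nM), whereas the study's supplement describes the WT controls as kept free of 4OHT. The labels name an ethanol vehicle, at a strength other than the one in the study's methods, without saying which samples received it, so the loss of the genes cannot be told apart from Cre activity or 4OHT exposure. The cells were selected populations and no cloning step is described. The labels name neither the floxed parental line behind the WT libraries nor separate cultures behind the 3 libraries of a group, so parental line and genotype cannot be told apart, and p-values measure only the spread between these libraries, which may be technical.

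Myc pairs with Max on DNA elements called E-boxes (CACGTG) and is best known for driving genes of ribosome assembly, nucleotide and amino acid metabolism and cell cycle entry, while Mxd proteins, Mnt and Mga compete with it for Max. Mlx is the Max-like partner of the glucose-sensing factors MondoA (Mlxip) and ChREBP (Mlxipl) and also of some Mxd proteins and Mnt. Its best known targets are the arrestins Txnip and Arrdc4, whose promoters carry carbohydrate response elements (ChoREs), which are paired E-box-like sites. In fibroblasts these 2 arms, together called the extended Myc network, are known for setting growth rate and fuel use.

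The promoters of Txnip and Arrdc4 are shown because these were the Mlx targets with the largest falls in DKO cells. The windows hold the 250 bases before the transcription start in RefSeq (GRCm38.p6), Txnip at chr3:96557707-96557956 on the plus strand and Arrdc4 at chr7:68749239-68749488 on the minus strand, written 5′ to 3′ on the gene's strand. Capitals mark a ChoRE match for Txnip (bases -85 to -69 from the start) and an E-box match for Arrdc4 (bases -193 to -188). The search found no ChoRE match in the Arrdc4 window.

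Txnip: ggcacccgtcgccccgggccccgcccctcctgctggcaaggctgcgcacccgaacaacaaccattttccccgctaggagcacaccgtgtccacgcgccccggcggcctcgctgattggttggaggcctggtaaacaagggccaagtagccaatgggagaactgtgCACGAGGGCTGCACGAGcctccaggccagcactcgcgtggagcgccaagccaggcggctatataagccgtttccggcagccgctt
Arrdc4: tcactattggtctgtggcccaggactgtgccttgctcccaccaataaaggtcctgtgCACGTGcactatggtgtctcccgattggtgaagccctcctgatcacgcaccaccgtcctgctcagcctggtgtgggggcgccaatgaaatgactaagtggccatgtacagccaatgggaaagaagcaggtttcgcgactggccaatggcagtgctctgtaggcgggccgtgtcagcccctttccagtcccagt

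The letters searched on both strands were CACGTG for the E-box, and the ChoRE was searched by its name as a pair of E-box-like sites with 5 bases between them, one of them starting with the letters CACG, and a CACGTG inside a ChoRE counted for both. Among windows of 300 bases (250 before and 50 after the start), 7.24% of all 27025 genes in the promoter table held an E-box and 0.522% held a ChoRE. Of the genes compared, 10070 had a window, and 10.2% of these held an E-box. The share was 14.1% of 854 genes lower in DKO, 8.50% of 1024 genes higher in DKO and 10.1% of 8192 genes that did not pass the test described below. For the ChoRE the same shares were 1.64%, 0.879% and 0.964%. Matches are descriptions of letters in a window, without evidence of binding.

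Before the comparison, 1 library stood apart. Reads on genes ranged from 17541112 to 17887100 in the WT libraries and from 18119003 to 18500836 in the DKO libraries, so depth was similar. Over the genes compared, log2 profiles correlated at r = 0.992 between WT libraries 2 and 3 and at r = 0.990 to 0.994 among DKO libraries, yet WT library 4 correlated at only r = 0.943 to 0.950 with the other WT libraries, as a description across genes of libraries of similar depth. DKO libraries resembled WT libraries 2 and 3 (r = 0.965 to 0.976) more than WT library 4 did. In WT library 4, 1376 genes differed by over 1 log2 unit from the mean of WT libraries 2 and 3 (495 higher, 881 lower), against 53 genes between WT libraries 2 and 3. The Y-linked helicase gene Ddx3y was at 6.56, 4.61 and 106 CPM in WT and 1.25, 1.75 and 2.04 CPM in DKO, so WT library 4 held far more Y-linked transcript than any other of the 6. The interferon-stimulated gene Ifit1, named after its values were seen, was at 288, 349 and 7.67 CPM in the WT libraries and 248, 276 and 323 CPM in the DKO libraries, so WT library 4 also had much less of it. Because WT library 4 lies on both sides of the others, list counts are given with all 3 WT libraries and again without it, and so are named genes whose call ended or whose fold change moved by over 1.5 times without it.

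The defining fibroblast markers were present: all 12 fixed markers, among them the collagen chain Col1a1 and the receptor Pdgfra, were at 1 CPM or more in all 6 libraries, with sums of 23594 to 34589 CPM in WT and 26085 to 34063 CPM in DKO. Of 12 macrophage markers, Adgre1, C1qa, C1qb, C1qc, Ptprc and Tyrobp were at 0 in all 6 libraries and the sums were 7.55 to 8.64 CPM in WT and 10.2 to 11.4 CPM in DKO. Of 8 epithelial markers, Epcam, Krt5, Krt8, Krt14 and Krt18 were under 1 CPM in all 6 libraries (sums 12.8 to 22.0 and 26.9 to 33.5 CPM). Of 7 endothelial markers, Cldn5, Emcn and Tie1 were at 0 throughout (sums 3.10 to 5.05 and 7.64 to 9.002 CPM). Of 8 skeletal muscle markers, Myod1, Myog, Myf5, Myh3 and Pax7 were at 0 throughout. In bulk RNA such as this, fewer cells of a type and less RNA per cell cannot be told apart.

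The comparison of DKO with WT asked which transcripts differed once both arms of the network were removed from already immortalized cells. In DKO cells 1338 genes were higher, 10.4% of those tested, and 1096 were lower, 8.51%, which made 2434 in all or 18.9% (limma on log2(CPM + 1), adjusted p under 0.05). Most differences were small, since 359 of the higher and 172 of the lower genes passed a log2 fold change of 1 in size, and 50 and 29 passed 2. Without WT library 4, 1540 genes were higher (12.0%) and 1300 lower (10.1%), in all 2840 or 22.0%. Of the 2434 calls, 2013 (82.7%) were also called without that library, all in the same direction, and none of the 2434 changed sign. The libraries of the groups did not overlap for 1322 of the 1338 higher and 1076 of the 1096 lower genes; over all genes tested, 19.2% had every DKO library above every WT library and 18.0% had every DKO library below.

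Myc itself was the first check of the labels. Only part of the gene is removed by excision and the remaining exons are still counted. Myc (chr15:61857227-61862223, plus strand, GRCm39) was at 48.1, 39.9 and 177 CPM in WT libraries 2, 3 and 4 and 8.02, 5.77 and 4.25 CPM in DKO libraries 13, 14 and 15. Every DKO library lay below every WT library, although WT library 4 was well above the other WT libraries, and the log2 fold change was -3.38 (SE 0.43, adjusted p = 0.000385), or -2.71 (adjusted p = 1.9e-06) without that library. Mlx (chr11:100978080-100983043, plus strand) was at 25.1, 23.5 and 20.5 CPM in WT libraries 2, 3 and 4 and 14.5, 18.0 and 17.7 CPM in DKO libraries 13, 14 and 15. The DKO libraries were lower without overlap, but the fall missed the threshold at -0.44 (SE 0.16, adjusted p = 0.0694) and passed it without WT library 4 at -0.52 (adjusted p = 0.034). In MlxKO libraries 5, 6 and 7, which were made with the same allele, Mlx was at 17.0, 12.4 and 12.1 CPM, and the difference DKO minus MlxKO, 0.27 (adjusted p = 0.217), did not pass.

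None of the 10 members of the Myc arm, counting Myc itself, rose. With all WT libraries 4 fell, Myc among them, where 8.51% of all genes tested were lower. Without WT library 4, 7 fell, again with Myc among them, where 10.1% of all genes were lower. Max, the shared partner, fell from 55.3, 48.6 and 58.7 CPM in WT to 37.3, 36.3 and 38.3 CPM in DKO, -0.52 (SE 0.10, adjusted p = 0.00498). Mxi1, a Max partner that opposes Myc, was at 23.7, 22.7 and 28.7 CPM in the WT libraries and 10.7, 14.7 and 11.8 CPM in the DKO libraries, a fall of -0.96 (SE 0.14, adjusted p = 0.00106), and Mga, a large Max-binding repressor, fell by 0.52 on the log2 scale (adjusted p = 0.0204). These 3 falls were also present without WT library 4, at -0.47, -0.87 and -0.45. The repressors Mnt, Mxd1 and Mxd4 overlapped between the groups, and WT library 4 was as low as or lower than DKO. For Mnt the values were 54.6, 58.5 and 27.5 CPM in the WT libraries and 40.5, 37.7 and 32.8 CPM in the DKO libraries, and the log2 fold change was -0.27 (adjusted p = 0.456) with it and -0.60 (adjusted p = 0.0142) without it; those of Mxd1 and Mxd4 without it were -0.49 (adjusted p = 0.0194) and -0.47 (adjusted p = 0.0104). Mxd3 was at 8.26, 11.7 and 10.6 CPM in the WT libraries and 14.6, 10.97 and 13.4 CPM in the DKO libraries and did not pass the test (0.33, adjusted p = 0.253). The paralogs Mycn and Mycl were near absent. Mycn was at or under 0.0555 CPM in all 6 libraries, at a level where 3 reads amount to 0.166 to 0.183 CPM, and Mycl was at 0.234, 0.388 and 2.50 CPM in the WT libraries and 0.569, 0.566 and 0.718 CPM in the DKO libraries, -0.17 (adjusted p = 0.731). In MycKO libraries 9, 10 and 11, by comparison, Mycl was at 14.8, 15.1 and 14.1 CPM, -3.28 (adjusted p = 9.05e-06) for DKO minus MycKO.

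In the Mlx arm 3 of 8 tested genes fell and none rose. Without WT library 4 the falls were 4, with the excised gene Mlx added. The arrestins Txnip and Arrdc4 were close to absent from DKO cells. Txnip, an inhibitor of glucose uptake and thioredoxin, was at 60.7, 74.3 and 33.8 CPM in WT libraries 2, 3 and 4 and 0.682, 1.30 and 1.49 CPM in DKO libraries 13, 14 and 15. Even WT library 4, the lowest of its group, was far above every DKO library, and the fall was -4.68 (SE 0.27, adjusted p = 9.02e-07), or -5.00 (adjusted p = 5.09e-09) without WT library 4, the largest fall of any gene that met the rule for naming. Arrdc4, a related arrestin that lowers glucose uptake, was at 15.3, 12.3 and 6.51 CPM in the WT libraries and 0.739, 0.735 and 1.10 CPM in the DKO libraries. Again no DKO library reached a WT library, with -2.67 (SE 0.26, adjusted p = 4.71e-05) and, without WT library 4, -2.99 (adjusted p = 3.13e-07). Both genes were lower in DKO than in cells lacking Myc alone, where Txnip was at 37.2, 41.4 and 38.4 CPM, -4.23 (adjusted p = 3.5e-07) for DKO minus MycKO. Beside cells lacking Mlx alone, where Txnip was at 4.40, 2.55 and 4.54 CPM, the difference was -1.15 (adjusted p = 0.00737); for Arrdc4 these differences were -1.91 (adjusted p = 0.000163) and 0.64 (adjusted p = 0.0847). Pfkfb3, which makes the allosteric activator of phosphofructokinase, was at 16.6, 18.5 and 16.0 CPM in the WT libraries and 9.38, 10.97 and 8.06 CPM in the DKO libraries and fell by 0.79 on the log2 scale (SE 0.16, adjusted p = 0.00585). The other measured members did not pass. The DNA-binding partner Mlxip was at 60.3, 65.4 and 73.6 CPM in the WT libraries and 57.9, 52.6 and 44.1 CPM in the DKO libraries (-0.36, adjusted p = 0.0898). Log2 fold changes were -0.28 for Arrdc2 (adjusted p = 0.39), 0.51 for Arrdc3 (adjusted p = 0.058) and 0.08 for Klf10, a zinc finger repressor (adjusted p = 0.637). Mlxipl and Pklr were too low to be tested.

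**Figure D1:**
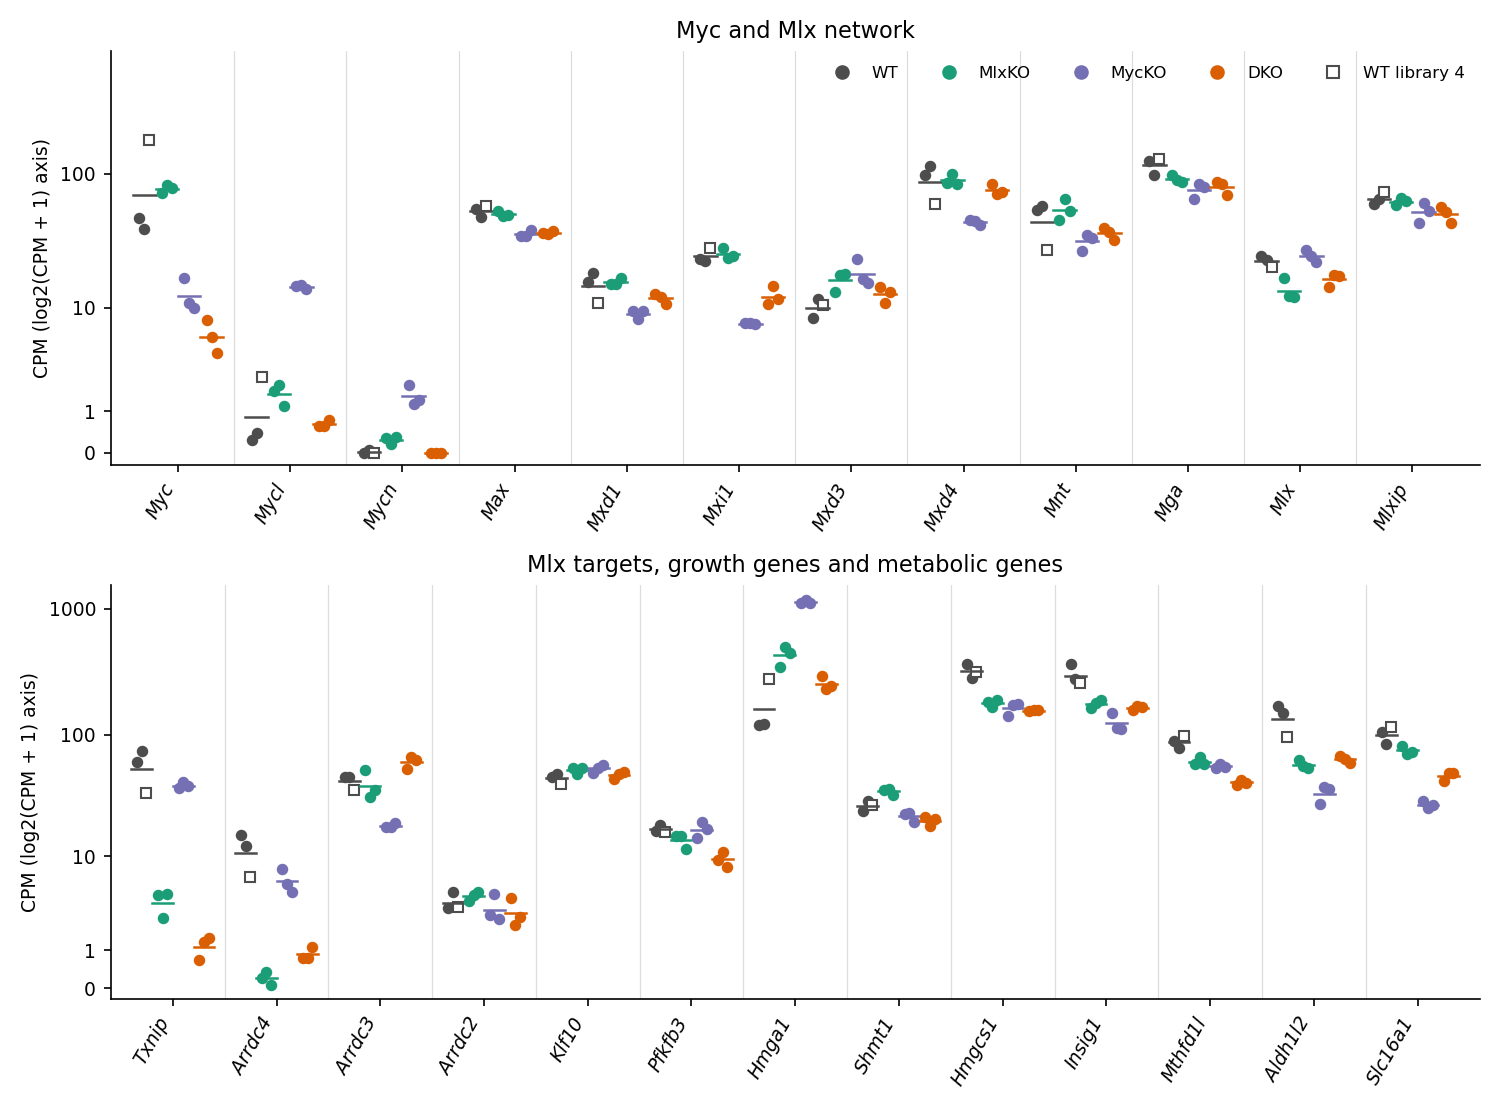
CPM of each library on a log2(CPM + 1) axis for the 4 immortalized groups, with bars at group means on that axis and WT library 4 as an open square; the upper panel shows the Myc and Mlx network and the lower panel Mlx targets, growth genes and metabolic genes. Txnip and Arrdc4 are low in both groups without Mlx (MlxKO and DKO), while Mycl and Hmga1 are highest in MycKO.

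A set of 3 genes that the study ties to a partial rescue of Myc loss in other fibroblasts was also followed. The study names overexpression for Hmga1 and Shmt, and knockdown for Plac8. Hmga1, an architectural chromatin protein, was at 119, 121 and 276 CPM in the WT libraries and 292, 233 and 244 CPM in the DKO libraries. WT library 4 lay inside the DKO range, so the rise did not pass with all libraries (0.68, adjusted p = 0.0891) and passed without that library at 1.08 (adjusted p = 0.000135); 25.0% of its 50-base stretches occur in another gene, which leaves its count uncertain. Hmga1 was far lower than in MycKO cells, -2.14 (adjusted p = 7.12e-05) for DKO minus MycKO. Shmt1, the cytosolic serine hydroxymethyltransferase, fell by 0.40 on the log2 scale (adjusted p = 0.0394), a call that was not kept without WT library 4 (-0.38 (adjusted p = 0.0502)). Plac8 was at most 0.114 CPM in any of the 6 libraries and was not tested.

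Enzymes of cholesterol synthesis fell together. Of 24 sterol genes tested, 18 fell and 1 rose, with a median log2 fold change of -0.59 where the median over all genes was -0.01; without WT library 4 the counts were again 18 and 1 and the median was -0.54. Hmgcs1, which makes the HMG-CoA that the pathway starts from, was at 364, 282 and 317 CPM in WT libraries 2, 3 and 4 and 154, 157 and 157 CPM in DKO libraries 13, 14 and 15. No DKO library came near the lowest WT library (-1.03 (SE 0.12, adjusted p = 0.000183)). Insig1, the sterol-sensing anchor of SREBP, was at 362, 276 and 257 CPM in the WT libraries and 157, 168 and 167 CPM in the DKO libraries, -0.84 (SE 0.15, adjusted p = 0.00241). Stard4, a cholesterol carrier, fell by 0.83 (adjusted p = 0.000224). The single sterol gene that rose was Ebp, a sterol isomerase named after its values were seen, at 0.54 (SE 0.15, adjusted p = 0.0284).

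Serine and one-carbon metabolism fell as well, with 8 of 12 genes lower and none higher (median -0.45; 8 lower without WT library 4, median -0.41). The mitochondrial folate enzyme Mthfd1l was at 88.8, 78.2 and 96.9 CPM in WT libraries 2, 3 and 4 and 39.7, 43.5 and 41.0 CPM in DKO libraries 13, 14 and 15. DKO libraries were close to each other and all below WT, and the fall was -1.07 (SE 0.11, adjusted p = 5.33e-05). Aldh1l2, which oxidizes formyl groups on folate in mitochondria, was at 169.8, 148 and 96.7 CPM in the WT libraries and 67.2, 64.0 and 59.1 CPM in the DKO libraries and fell by 1.07 (adjusted p = 0.00244). Falls of -0.81 were found for Sfxn1, the mitochondrial serine carrier (adjusted p = 0.00286), and of -0.64 for Psph, the last enzyme of serine synthesis (adjusted p = 0.0123). Nucleotide synthesis was less even: 1 rose and 6 fell of 23 tested (median log2 fold change -0.29), and without WT library 4, 2 rose and 3 fell (median -0.12). Ppat, the entry enzyme of purine synthesis, was at 53.5, 43.0 and 71.9 CPM in the WT libraries and 31.2, 32.5 and 31.4 CPM in the DKO libraries, -0.77 (SE 0.15, adjusted p = 0.00507), and Adsl fell by 0.53 (adjusted p = 0.017). The falls of Cad, the entry enzyme of pyrimidine synthesis (-0.84, adjusted p = 0.0495), and of Gart (-0.48, adjusted p = 0.0495) no longer passed without WT library 4, where they were -0.47 (adjusted p = 0.0864) and -0.27 (adjusted p = 0.0931). Among 10 polyamine genes Amd1, the decarboxylase that supplies aminopropyl groups, fell (-0.78 (SE 0.18, adjusted p = 0.0133)); it was the only call of that list with all WT libraries, while 1 rose and 3 fell without WT library 4 and 45.9% of the 50-base stretches of Amd1 occur elsewhere.

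Glycolytic genes moved both ways: 6 rose and 2 fell of 21 tested (median log2 fold change 0.17), and without WT library 4, 7 rose and 2 fell (median 0.26). The 2 lactate carriers of the list were opposite to each other. Slc16a1 (MCT1), the carrier most cells use, was at 105, 83.5 and 114 CPM in WT libraries 2, 3 and 4 and 42.6, 48.8 and 49.6 CPM in DKO libraries 13, 14 and 15 and fell by 1.08 on the log2 scale (SE 0.13, adjusted p = 0.000224). Slc16a3 (MCT4), which glycolytic cells use for export, was at 6.03, 6.49 and 11.9 CPM in the WT libraries and 20.9, 16.2 and 17.8 CPM in the DKO libraries and rose by 1.13 (adjusted p = 0.00711). In both cases the groups did not overlap. Slc2a3, a high-affinity glucose transporter, was at 3.16, 3.16 and 0.974 CPM in the WT libraries and 7.56, 5.77 and 7.57 CPM in the DKO libraries and rose by 1.29 (adjusted p = 0.0123); without WT library 4 the rise was 0.93 (adjusted p = 0.0119). In the ATF4 response, which cells use when amino acids run short, 6 genes fell and 2 rose of 19 (median 0.04), and without WT library 4, 8 fell and 2 rose (median -0.17), so the sign of the median depended on that library. The cystine carrier Slc7a11 was at 49.1, 29.1 and 29.9 CPM in the WT libraries and 14.5, 14.1 and 13.1 CPM in the DKO libraries and fell by 1.27 (adjusted p = 0.00121). Asns, asparagine synthetase, fell by 0.94 (adjusted p = 0.000963) and the glycoprotein hormone Stc2, highest in WT library 4, by 1.67 (adjusted p = 0.0174) with that library and 0.99 (adjusted p = 0.00127) without it, while the stress cofactor Nupr1 rose by 0.99 (adjusted p = 0.0107).

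Genes of protein synthesis fell on the cytosolic side and not on the mitochondrial side. Of 79 cytosolic ribosomal protein genes 21 fell and none rose (median -0.64); without WT library 4, 17 fell (median -0.44). Their summed level was 24015, 25964 and 33382 CPM in the WT libraries and 16885, 17178 and 20198 CPM in the DKO libraries, with no overlap and WT library 4 the highest. Rpl12 and Rps27a fell by 0.94 (adjusted p = 0.0259) and 0.98 (adjusted p = 0.0146), whereas the fall of Rpl39 (-1.37, adjusted p = 0.0375) did not pass without WT library 4. Ribosomal protein genes have many processed copies in the genome, so reads may be shared between copies. For ribosome biogenesis, 10 of 32 genes fell and none rose (median -0.43; 7 fell without WT library 4, median -0.17). Wdr43, a factor of small subunit assembly, was at 112, 94.8 and 185 CPM in WT libraries 2, 3 and 4 and 54.3, 62.1 and 64.1 CPM in DKO libraries 13, 14 and 15. DKO libraries were lowest and WT library 4 was the highest, with -1.05 (SE 0.19, adjusted p = 0.00355) and -0.77 (adjusted p = 0.000426) without that library. Gnl3 (nucleostemin) fell by 0.95 (adjusted p = 0.00462), Heatr1 by 0.91 (adjusted p = 0.02) and Dkc1, the pseudouridine synthase of small nucleolar ribonucleoproteins, by 0.86 (adjusted p = 0.0237). Of 20 aminoacyl-tRNA synthetases 9 fell and none rose (median -0.29; 8 without WT library 4, median -0.29). Lars, which charges leucine tRNA, was at 234, 192 and 209 CPM in the WT libraries and 103, 115 and 106 CPM in the DKO libraries, -0.96 (SE 0.12, adjusted p = 0.000313). The isoleucine enzyme Iars fell by 0.84 (adjusted p = 0.00111). By contrast, 3 of 78 mitochondrial ribosomal protein genes rose and 0 fell (median 0.06; 3 and 1 without WT library 4), Mrps12 most at 0.79 (SE 0.21, adjusted p = 0.0211). Of 78 respiratory chain genes 1 rose and 3 fell (median 0.04; 0 and 2 without WT library 4), and Atp5a1, a subunit of ATP synthase, fell by 0.41 (adjusted p = 0.016).

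**Figure D2:**
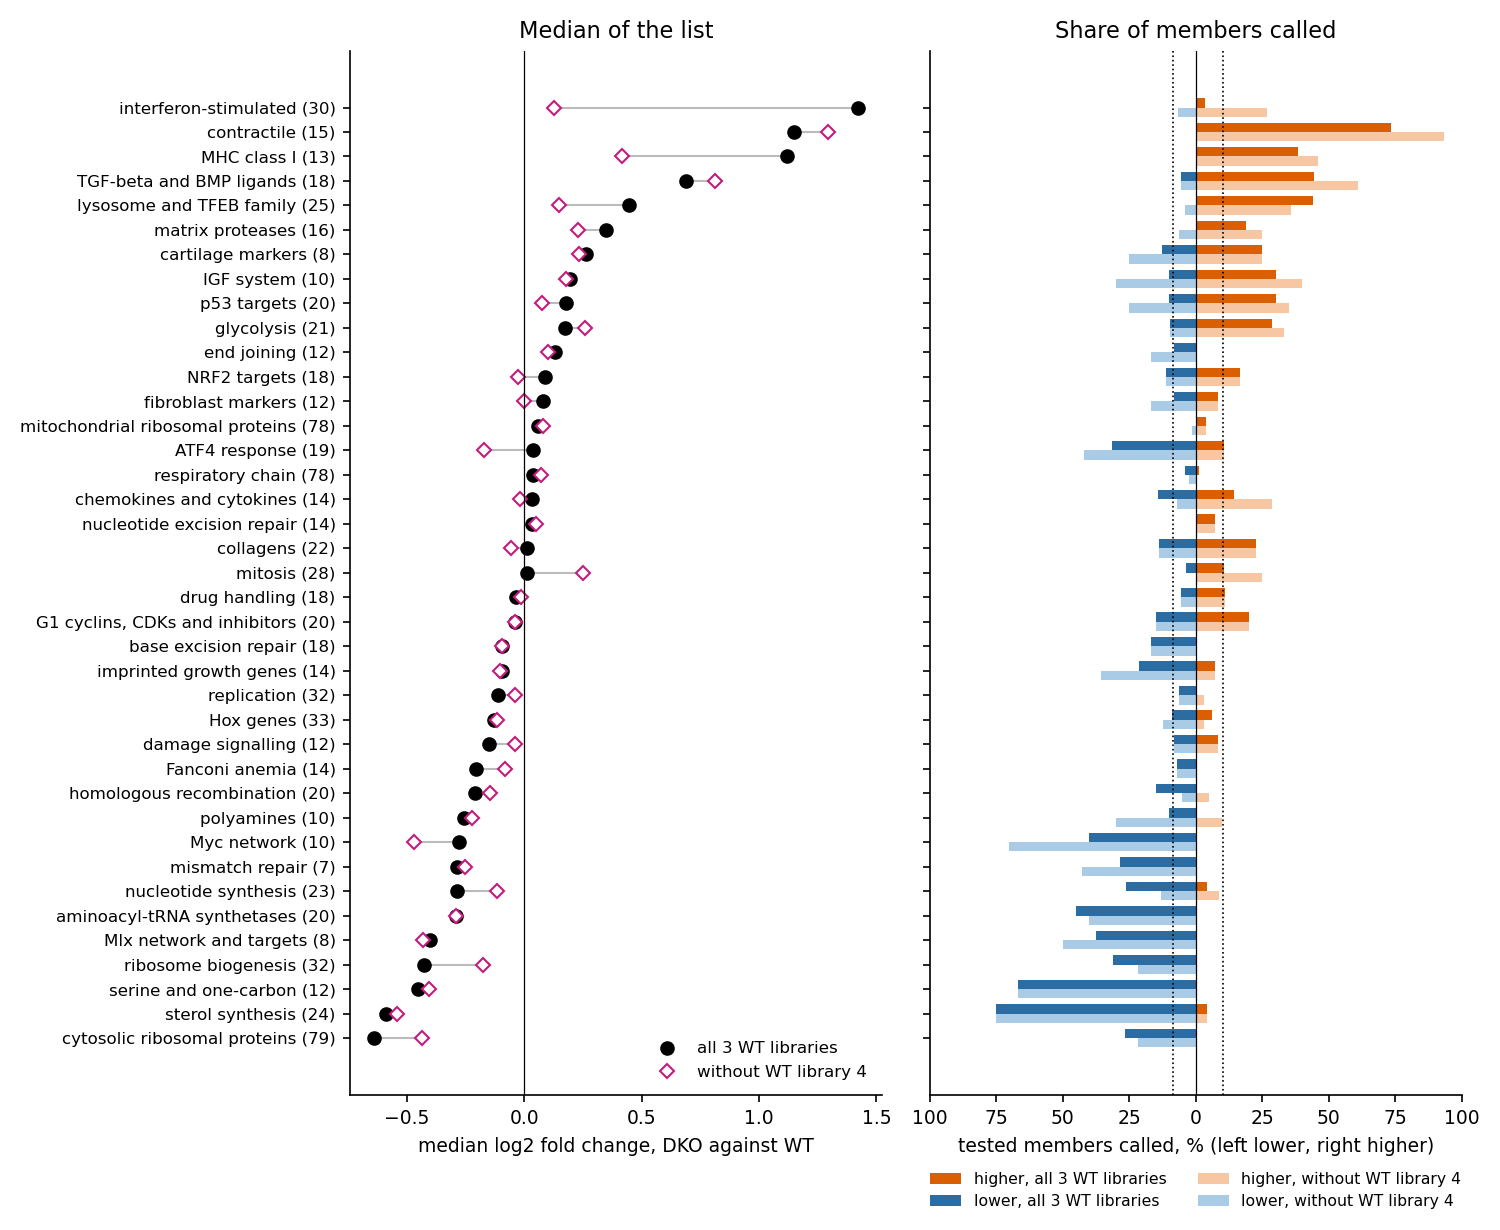
Left, median log2 fold change of each list, with the number of tested genes in brackets, for all 3 WT libraries (filled) and without WT library 4 (open). Right, the share of tested members called higher (to the right) and lower (to the left) in percent, where dotted lines mark the shares over all genes (10.4% and 8.51%); the median of the interferon-stimulated list falls from 1.42 to 0.13 without WT library 4.

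Cell cycle genes differed at few points, chiefly among the cyclins and kinases of G1. Ccnd1 (cyclin D1), which starts Rb phosphorylation, was at 302, 318 and 56.3 CPM in WT libraries 2, 3 and 4 and 707, 684 and 700.0 CPM in DKO libraries 13, 14 and 15. DKO libraries were above all WT libraries and WT library 4 was far below the others; the rise was 1.98 (SE 0.47, adjusted p = 0.0137) with all WT libraries and 1.17 (adjusted p = 1.36e-06) without that library, so its size depended on it. Cdk6, a kinase partner of D cyclins, was at 32.1, 25.8 and 11.7 CPM in the WT libraries and 7.85, 7.30 and 6.02 CPM in the DKO libraries and fell by 1.48 (adjusted p = 0.00364), and Ccnd2 fell by 0.60 (adjusted p = 0.0371). E2f1, a transcription factor freed when Rb is phosphorylated, was at 48.5, 55.0 and 50.9 CPM in the WT libraries and 92.3, 85.3 and 83.6 CPM in the DKO libraries, a rise of 0.75 (SE 0.10, adjusted p = 0.000585). On the whole G1 list, 4 rose and 3 fell of 20 tested (median log2 fold change -0.04), and without WT library 4, 4 rose and 3 fell (median -0.04). DNA replication genes moved little (0 higher, 2 lower of 32, median -0.11; 1 and 2 without WT library 4), the falls being those of Rfc1, the largest subunit of the clamp loader (-0.43 (SE 0.10, adjusted p = 0.0128)), and of Pola1, the catalytic subunit of polymerase alpha (-0.46, adjusted p = 0.0299, lost without WT library 4 at adjusted p = 0.0592). For mitosis, 3 rose and 1 fell of 28 tested (median log2 fold change 0.01), and without WT library 4, 7 rose and 0 fell (median 0.25). The phosphatases Cdc25c and Cdc25b, which switch on mitotic CDK1, rose by 0.54 (adjusted p = 0.00464) and 0.45 (adjusted p = 0.00868), and the kinase Plk1 by 0.37 (adjusted p = 0.0264). Among 20 p53 targets 6 rose and 2 fell (median 0.18; 7 and 5 without WT library 4). Phlda3, an inhibitor of AKT, was at 48.0, 58.5 and 43.7 CPM in the WT libraries and 111, 80.9 and 81.7 CPM in the DKO libraries, 0.85 (SE 0.16, adjusted p = 0.0045). Pmaip1 (Noxa), a BH3-only death gene, rose by 0.73 (adjusted p = 0.00464), while Sesn1 fell by 0.64 (adjusted p = 0.00632).

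The DNA repair genes listed here, a subject of the study, showed few and small differences. These lists are much shorter than the study's own set of DNA damage and repair transcripts. The lists gave 0 higher and 3 lower of 20 for homologous recombination (median -0.21), 0 and 2 of 7 for mismatch repair (-0.28), and 0 and 3 of 18 for base excision repair (-0.09). They gave 1 and 0 of 14 for nucleotide excision repair (0.03), 0 and 1 of 14 for the Fanconi anemia pathway (-0.20), 0 and 1 of 12 for end joining (0.13), and 1 and 1 of 12 for damage signalling (-0.15). The counts higher and lower without WT library 4 were 1 and 1 for homologous recombination, 0 and 3 for mismatch repair and 0 and 2 for end joining, and those of the other 4 repair lists were as above, so the count for homologous recombination rested on that library. On either count no list had more than 3 genes moving in one direction, but the lists are small. With all WT libraries the lower share exceeded the 8.51% over all genes for homologous recombination, mismatch repair and base excision repair. Without WT library 4 it exceeded the 10.1% over all genes for mismatch repair, base excision repair and end joining. All 7 mismatch repair genes had negative log2 fold changes on either count. The higher share stayed below that over all genes (10.4%, or 12.0% without WT library 4) in every list. Atm, the kinase that senses double-strand breaks, was at 99.4, 75.3 and 96.4 CPM in WT libraries 2, 3 and 4 and 57.2, 60.9 and 45.3 CPM in DKO libraries 13, 14 and 15 and fell by 0.72 (adjusted p = 0.00653). Brca2, a homologous recombination gene, fell by 0.51 (adjusted p = 0.0189), Xrcc5 (Ku80) by 0.49 (adjusted p = 0.0411) and Lig3 by 0.51 (adjusted p = 0.0193). Ercc1, part of the nuclease that cuts at damaged nucleotides, rose by 0.63 (adjusted p = 0.0144), as did the histone H2ax by 0.43 (adjusted p = 0.0379). The falls of Exo1 and Mre11a (adjusted p = 0.049 and 0.0344) did not pass without WT library 4. Of 18 genes that handle drugs, 2 rose and 1 fell, with the same counts without WT library 4. The efflux pump Abcb1a was at 3.81, 3.11 and 2.86 CPM in the WT libraries and 8.53, 7.47 and 8.01 CPM in the DKO libraries, without overlap, a rise of 1.08 (SE 0.17, adjusted p = 0.00134), and Top2b, the target of topoisomerase poisons, fell by 0.48 (adjusted p = 0.0199).

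Contractile genes, which belong to the actin and smooth muscle program of fibroblasts, rose together. Of 15 tested 11 rose and none fell, with a median of 1.15, and without WT library 4, 14 rose (median 1.29). Their summed level was 5651 to 10069 CPM in WT and 14846 to 15302 CPM in DKO. Myl9, the regulatory light chain of smooth muscle myosin, was at 74.6, 117 and 92.2 CPM in WT libraries 2, 3 and 4 and 392, 301 and 338 CPM in DKO libraries 13, 14 and 15. All DKO libraries were well above all WT libraries, with 1.87 (SE 0.15, adjusted p = 1.17e-05). Myh11, the smooth muscle myosin heavy chain, was at 1.11, 0.888 and 0.304 CPM in the WT libraries and 9.55, 8.31 and 6.07 CPM in the DKO libraries, 2.35 (SE 0.22, adjusted p = 3.4e-05), and Lmod1, an actin nucleator, was at 24.6, 27.2 and 24.5 CPM in the WT libraries and 79.6, 64.9 and 68.7 CPM in the DKO libraries, 1.44 (SE 0.13, adjusted p = 2.49e-05). Tagln (transgelin) was at 233, 311 and 726 CPM in the WT libraries and 1128, 972 and 1049 CPM in the DKO libraries. WT library 4 was closest to DKO, and the rise was 1.48 (SE 0.31, adjusted p = 0.00671) with it and 1.96 (adjusted p = 8.84e-07) without it. Acta2, smooth muscle actin, named after its values were seen, rose by 1.35 (adjusted p = 0.00115). Acta1, the skeletal actin, was at 22.1, 20.5 and 13.1 CPM in the WT libraries and 90.8, 85.5 and 88.7 CPM in the DKO libraries, 2.22 (SE 0.16, adjusted p = 5.7e-06), while the other 7 skeletal muscle markers were under 1 CPM in all 6 libraries.

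Structural matrix genes did not move as a group. Of 22 collagen genes 5 rose and 3 fell (median 0.01), and without WT library 4 the counts were the same with a median of -0.05. Col8a1, a short-chain collagen, was at 195, 130.1 and 261 CPM in WT libraries 2, 3 and 4 and 348, 372 and 350.5 CPM in DKO libraries 13, 14 and 15, a rise of 0.92 (SE 0.20, adjusted p = 0.00762) without overlap. Col8a2 rose by 1.53 (adjusted p = 0.0029) and the basement membrane collagen Col18a1 by 1.09 (adjusted p = 0.0113), while Col10a1, the collagen of hypertrophic cartilage, fell by 1.05 (adjusted p = 0.00849). Col2a1, the main collagen of cartilage, was at 4.10, 4.16 and 1.46 CPM in the WT libraries and 39.3, 31.3 and 28.8 CPM in the DKO libraries, 3.08 (SE 0.28, adjusted p = 3.01e-05). Of the 8 tested cartilage markers, 2 rose (Col2a1 and Matn3, the latter by 1.37, adjusted p = 0.00244) and 1 fell, the proteoglycan Acan (-1.78, adjusted p = 0.00137), so the markers did not move one way; without WT library 4, 2 rose and 2 fell. Postn (periostin), a secreted matricellular protein, fell steeply. It was at 1966, 2672 and 694 CPM in WT libraries 2, 3 and 4 and 105, 104 and 96.8 CPM in DKO libraries 13, 14 and 15. DKO libraries lay close together and far under all WT libraries, with -3.90 (SE 0.36, adjusted p = 3e-05), or -4.48 without WT library 4. It was 1 of only 2 fibroblast markers of 12 called, the other being Pdgfrb, a growth factor receptor, which rose by 0.48 (adjusted p = 0.0312), and without WT library 4, 1 rose and 2 fell. Thbs4, a thrombospondin, was at 130.1, 182 and 138 CPM in the WT libraries and 11.9, 11.1 and 11.3 CPM in the DKO libraries, -3.58 (SE 0.15, adjusted p = 9.59e-08). Fbn2 (fibrillin-2), a microfibril protein, was at 148, 136 and 394 CPM in the WT libraries and 28.5, 27.0 and 19.99 CPM in the DKO libraries; its fall was -2.95 (SE 0.32, adjusted p = 0.000116). Of 16 matrix proteases and inhibitors 3 rose and none fell (4 and 1 without WT library 4), among them the inhibitor Timp2 by 0.77 (adjusted p = 0.00642) and Mmp2 by 0.35 (adjusted p = 0.0316). Mmp2 lost its call under 9 of 19 alternatives, with log2 fold changes of 0.14 to 0.39.

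A list of secreted TGF-beta family factors, which also holds the BMP inhibitor Nog, had more rises than falls. Of 18 tested, 8 rose and 1 fell (median log2 fold change 0.69), and without WT library 4, 11 rose and 1 fell (median 0.81). Summed levels overlapped between the groups, at 660, 713 and 1338 CPM in the WT libraries and 1059, 992 and 965 CPM in the DKO libraries. Inhbb, the activin B subunit, was at 11.4, 13.5 and 17.8 CPM in WT libraries 2, 3 and 4 and 65.7, 54.3 and 53.1 CPM in DKO libraries 13, 14 and 15, with every DKO library well above every WT library and a rise of 1.96 (SE 0.15, adjusted p = 8.88e-06). Bmp4 was at 26.1, 29.3 and 14 CPM in the WT libraries and 79.3, 75.2 and 82.2 CPM in the DKO libraries, 1.79 (SE 0.21, adjusted p = 0.000217). Nog (noggin), which binds and blocks BMPs, rose by 1.63 (adjusted p = 0.00044), so ligand and inhibitor were both higher; Gdf15, a stress-induced member, rose by 1.84 (adjusted p = 0.00577). Within the IGF system 3 rose and 1 fell of 10, the binding proteins in opposite directions, and without WT library 4, 4 rose and 3 fell. Igfbp7 was at 41.9, 35.3 and 71.3 CPM in the WT libraries and 167, 137 and 146 CPM in the DKO libraries, 1.64 (SE 0.20, adjusted p = 0.000238), and Igfbp4 rose by 0.96 (adjusted p = 0.00445). Igfbp3 was at 13.2, 25.6 and 2.37 CPM in the WT libraries and 1.76, 1.75 and 1.33 CPM in the DKO libraries and fell by 2.06 (adjusted p = 0.0202), with WT library 4 near the DKO level and a fall of -2.90 without it. The fetal growth factor Igf2 rose by 0.64 (adjusted p = 0.00816), with 56.3% of its 50-base stretches shared with another gene model. Of 14 chemokines and cytokines 2 rose and 2 fell, but 4 rose and 1 fell without WT library 4, so their balance depended on it. Csf1, the growth factor of macrophages, was at 245, 281 and 325 CPM in the WT libraries and 618, 579 and 564 CPM in the DKO libraries, 1.05 (SE 0.12, adjusted p = 0.000172). The neutrophil chemokine Cxcl5 was at 99.7, 83.0 and 384 CPM in the WT libraries and 17.3, 24.2 and 27.0 CPM in the DKO libraries and fell by 2.66 (adjusted p = 0.00177); WT library 4 was the highest and the fall without it was -1.97. Ptn (pleiotrophin), a heparin-binding growth factor, was at 27.9, 33.1 and 55.6 CPM in the WT libraries and 2.39, 3.51 and 3.48 CPM in the DKO libraries, -3.22 (SE 0.22, adjusted p = 3.92e-06).

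The values of interferon-stimulated genes depended on WT library 4. Of 30 genes 1 passed the test, Gbp2, a guanylate-binding GTPase, although the list's median was 1.42. In 28 of these 30 genes WT library 4 was under 0.25 of the level in both other WT libraries, and the summed level was 3361, 3734 and 286 CPM in the WT libraries against 3851, 3781 and 4054 CPM in DKO. Without WT library 4, 8 rose, 2 fell and the median was 0.13. Gbp2 was at 18.3, 20.4 and 3.10 CPM in the WT libraries and 39.2, 41.6 and 43.6 CPM in the DKO libraries, 1.83 (adjusted p = 0.0167) and 1.06 (adjusted p = 8.69e-05) without that library. MHC class I genes stood higher on either count: 5 rose and none fell of 13 (median 1.12), and 6 rose without WT library 4 (median 0.42). H2-D1, a classical class I heavy chain, was at 183, 236 and 90.3 CPM in WT libraries 2, 3 and 4 and 637, 523 and 544 CPM in DKO libraries 13, 14 and 15, with every DKO library well above every WT library and a rise of 1.84 (SE 0.26, adjusted p = 0.000621), or 1.44 without WT library 4. H2-K1 rose by 1.50 (adjusted p = 0.00966) and the immunoproteasome subunit Psmb8 by 1.65 (adjusted p = 0.0144), which were 0.94 and 1.00 without WT library 4. The rule for the largest rises named further genes outside these lists. Trim30a, a TRIM protein of immune signalling, was at 23.1, 21.4 and 3.35 CPM in the WT libraries and 208, 255 and 249 CPM in the DKO libraries, 4.16 (SE 0.48, adjusted p = 0.000178) and 3.35 without WT library 4. Trim30d, its neighbour in the family, was at 6.03, 5.38 and 0.852 CPM in the WT libraries and 61.1, 69.97 and 69.4 CPM in the DKO libraries (3.96, adjusted p = 4.06e-05, and 3.34 without WT library 4). Sp100, a nuclear body protein, was at 5.505, 4.27 and 0.670 CPM in the WT libraries and 52.2, 51.4 and 54.3 CPM in the DKO libraries (3.80, adjusted p = 4.34e-05, and 3.20 without WT library 4). In each of these genes all DKO libraries were far above all WT libraries. Gbp9 was at 0, 0.0555 and 0.304 CPM in the WT libraries and 6.88, 8.14 and 7.23 CPM in the DKO libraries, 2.92 (SE 0.18, adjusted p = 1.72e-06), with exons shared with Gbp4 and Gbp8. Tgtp1 rose by 3.30 (adjusted p = 0.0353), H2-Q6 by 3.39 (adjusted p = 9.02e-07) and H2-Q4, already counted on the MHC class I list, by 1.92 (adjusted p = 0.00824). Their rises are uncertain because 82.6%, 30.0% and 26.9% of their 50-base stretches occur in another gene. These rises were 1.61, 3.14 and 1.22 without WT library 4, and Tgtp1 lost its call under 9 of 19 alternatives, with log2 fold changes of 1.58 to 4.42. Ifi27l2a rose by 3.33 (adjusted p = 0.00321), or 2.56 without WT library 4.

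Lysosomal genes rose, less so without WT library 4. Of 25 tested 11 rose and none fell (median 0.45); without that library 9 rose and 1 fell (median 0.15). Summed levels were 4531 to 7277 CPM in WT and 8488 to 9087 CPM in DKO. Ctsl (cathepsin L), a lysosomal protease, was at 279, 284 and 189 CPM in WT libraries 2, 3 and 4 and 492, 457 and 506 CPM in DKO libraries 13, 14 and 15. All DKO libraries were above WT libraries 2 and 3, with WT library 4 the lowest, and the rise was 0.97 (SE 0.17, adjusted p = 0.00234). Ctsz rose by 0.99 (adjusted p = 0.00445), Hexa, whose enzyme degrades gangliosides, by 0.97 (adjusted p = 0.017) and Grn (progranulin) by 0.87 (adjusted p = 0.0304), which were 0.74, 0.57 and 0.47 without WT library 4.

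The rule for the largest differences also named genes of other kinds. Cobl, an actin nucleator of neurons, was at 4.10, 2.55 and 0.852 CPM in WT libraries 2, 3 and 4 and 46.2, 50.9 and 49.8 CPM in DKO libraries 13, 14 and 15. It was low in WT and far higher in DKO (3.95 (SE 0.28, adjusted p = 4.79e-06)). Entpd1 (CD39), which hydrolyses extracellular ATP, was at 1.76, 1.28 and 1.16 CPM in the WT libraries and 18.2, 19 and 18.9 CPM in the DKO libraries, 3.05 (SE 0.14, adjusted p = 2.76e-07), and Chst1, a sulfotransferase, was at 5.04, 3.38 and 4.87 CPM in the WT libraries and 41.5, 39.3 and 37.1 CPM in the DKO libraries, 2.90 (SE 0.15, adjusted p = 3.43e-07). For these 3 genes WT library 4 did not exceed WT library 2. Tinagl1, a basement membrane protein, was at 87.1, 134 and 4.32 CPM in the WT libraries and 384, 289.8 and 311 CPM in the DKO libraries; the rise of 3.03 (adjusted p = 0.0276) was 1.58 without WT library 4, since that library was far below the others. On the falling side, Nptx1, a neuronal pentraxin, was at 13.1, 14.3 and 16.9 CPM in the WT libraries and 0.739, 0.792 and 1.33 CPM in the DKO libraries, -3.02 (SE 0.15, adjusted p = 3.43e-07), and Slc5a7, the choline transporter, was at 28.3, 29.3 and 12.9 CPM in the WT libraries and 2.56, 2.71 and 2.82 CPM in the DKO libraries, -2.65 (SE 0.32, adjusted p = 0.000247). The amino acid transporter Slc38a4 was at 6.56, 5.10 and 75.7 CPM in the WT libraries and 1.31, 1.53 and 1.49 CPM in the DKO libraries, a fall of -2.64 (adjusted p = 0.0195) that was -1.48 without WT library 4. Of the list of imprinted growth genes, Dlk1, a Notch-like surface protein, and Peg10, a retrotransposon-derived gene, fell too. Dlk1 was at 5.27, 14.8 and 14.97 CPM in the WT libraries and 0.739, 0.792 and 0.331 CPM in the DKO libraries, -2.86 (SE 0.33, adjusted p = 0.000197), and Peg10 at 206, 167 and 127 CPM in the WT libraries and 39.9, 42.8 and 35.8 CPM in the DKO libraries, -2.03 (SE 0.17, adjusted p = 1.32e-05). Plagl1, a zinc finger regulator of imprinted genes, fell by 1.15 (adjusted p = 0.00762).

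**Figure D3:**
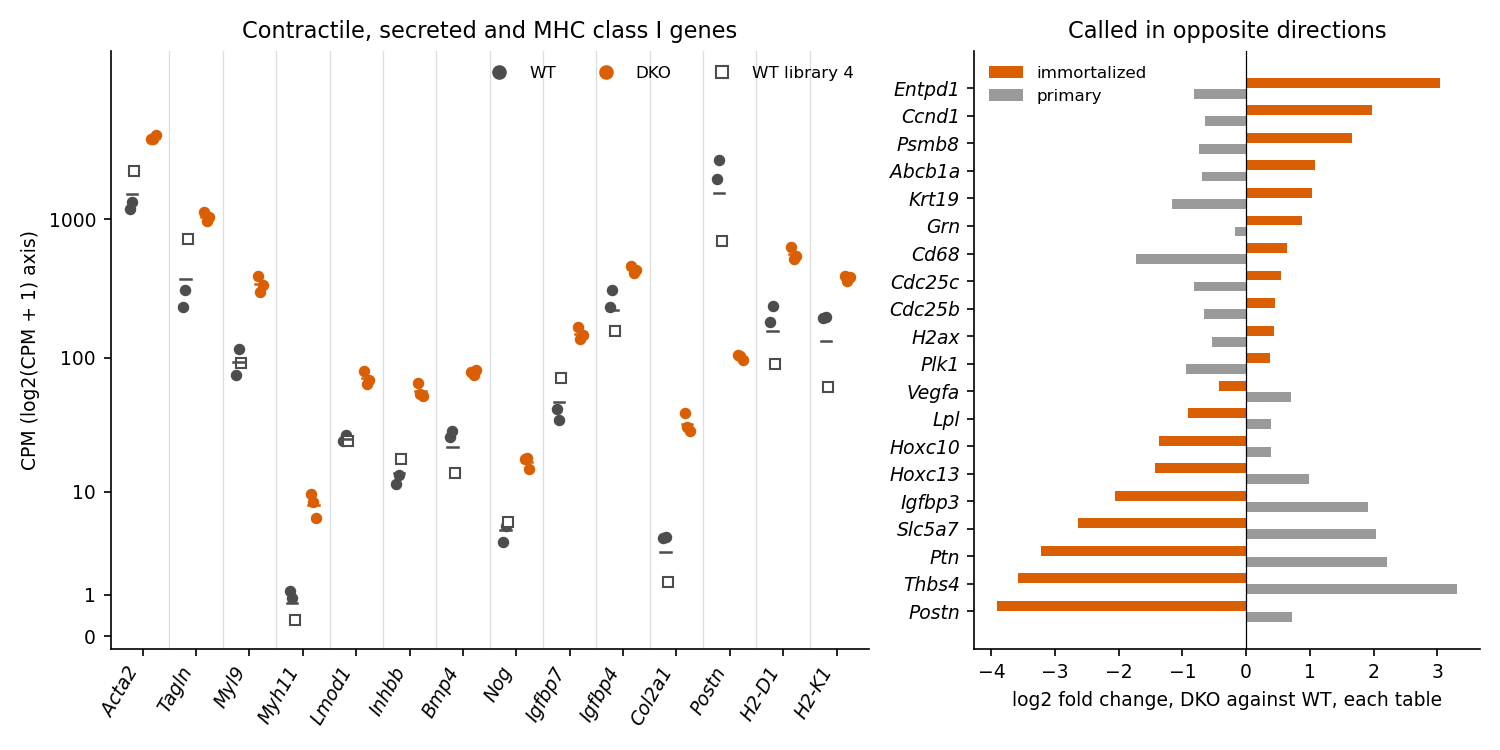
Left, CPM per library on a log2(CPM + 1) axis for contractile, secreted and MHC class I genes, with bars at group means on that axis and WT library 4 as an open square; every DKO library is above every WT library except for Postn, where it is below. Right, log2 fold change of DKO against WT in the immortalized and the primary table for the 20 named genes called in opposite directions in them.

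Beside the single knockouts of the same table, DKO differed from cells lacking Myc alone (MycKO) at 1909 higher genes (14.8%) and 1879 lower genes (14.6%), 3788 or 29.4% in all, and from cells lacking Mlx alone (MlxKO) at 2094 higher (16.3%) and 1785 lower genes (13.9%), 3879 or 30.1% in all. These comparisons share the DKO libraries with each other and with the comparison to WT, so their agreement is not a result and values are given side by side. The study reports that most immortalized MycKO cells had become tetraploid or pseudo-tetraploid, while DKO cells stayed euploid. Ploidy and genotype therefore cannot be told apart between DKO and MycKO. Of the 1156 genes higher than WT both with and without WT library 4, 340 were also higher than in MycKO, 205 were lower than in MycKO and 611 did not pass; against MlxKO the counts were 541, 46 and 569. Of the 857 genes lower than WT on both counts, 180 were lower than in MycKO, 135 higher and 542 did not pass, and against MlxKO 338 were lower, 42 higher and 477 did not pass. The contractile list separated the groups. Beside MycKO 10 of its 15 genes were lower in DKO and 1 was higher, while beside MlxKO 10 were higher and 0 lower. Myh11 was at 46.1, 64.6 and 63.5 CPM in MycKO libraries 9, 10 and 11 and at 0.532, 0.651 and 0.306 CPM in MlxKO libraries 5, 6 and 7, with DKO between them (-2.72 (adjusted p = 2.7e-06) for DKO minus MycKO and 2.57 (adjusted p = 1.02e-05) for DKO minus MlxKO). Cytosolic ribosomal protein genes were lower in DKO than in MlxKO at 36 of 79 and than in MycKO at 14, where MycKO library 9 stood apart with a summed level of 37109 CPM against 19914 and 20452 CPM in MycKO libraries 10 and 11. Thbs4 was at 0.818, 0.494 and 0.675 CPM in MycKO and 15.9, 14.8 and 15.6 CPM in MlxKO, so its DKO level was above MycKO (2.91 (adjusted p = 4.55e-08)) and, beside MlxKO, did not pass (-0.40 (adjusted p = 0.0562)). Ptn was at 90.4, 67.9 and 66.2 CPM in MycKO and 141, 122.9 and 131 CPM in MlxKO, far above DKO in both (-4.20 (adjusted p = 7.5e-08) and -5.01 (adjusted p = 1.33e-07)). Col2a1 at 0.613, 1.87 and 1.35 CPM in MycKO and 0.290, 0.4004 and 0.306 CPM in MlxKO was lower than in DKO in both (3.93 (adjusted p = 9.57e-07) and 4.67 (adjusted p = 6.3e-07)).

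The same genotypes were compared in primary MEFs that were not immortalized, with the tables normalized separately and never tested against each other. There 3146 genes were higher in DKO (24.0% of 13101 tested) and 3341 lower (25.5%), 6487 or 49.5% in all. Of the 2367 genes called in immortalized cells and tested in primary cells, 1346 were called in both, 1054 in the same direction and 292 in the opposite one. Without WT library 4 these counts were 1058 and 506 of 2751 genes. Those in the same direction were 44.5% of the immortalized calls and 17.3% of the 6084 primary calls among genes tested in both tables. Txnip and Arrdc4 also fell in primary cells, by 2.28 and 1.45 on the log2 scale, and so did Hmgcs1 by 0.74. Log2 fold changes in primary cells were 1.10 (adjusted p = 3.17e-06) for Myl9 and 2.26 (adjusted p = 5.99e-10) for Myh11. Sterol synthesis had 22 of 24 genes lower in primary cells, ribosome biogenesis 32 of 32 and contractile genes 14 of 15 higher. The cycle lists were unlike those of the immortalized cells in their counts, since 32 of 32 replication genes and 27 of 28 mitosis genes were lower in primary DKO cells. Whether the tables differ was not tested. The study describes the primary DKO cells as growth-arrested when profiled and the immortalized ones as proliferating, so growth state differed between the tables.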

How the data were processed

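Poly-A RNA (RIN of at least 9.6) was sequenced from directional libraries, and the authors made the values with CLC Genomics Workbench (version 22) on mouse GRCm39; whether counting used strand is not given in the sources used here. The deposited tables hold a normalized signal that their names call CPM. The values of an immortalized library summed to between 915691 and 1077213, and every nonzero value was a whole number of reads (tolerance 0.1) times a constant of its library, so reads were recovered for alternative tests. Depth was 17541112 to 19851300 reads on genes in the 12 immortalized libraries, where 3 reads amount to 0.145 to 0.183 CPM; intervals from such counts would cover counting error only.

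A gene was tested if 3 or more libraries of its table (of 12) reached 1 CPM, on log2(CPM + 1) with limma 3.58.1 (mean trend, R 4.3.3), with all 4 groups of the table in 1 fit, no covariates, 2-sided, Benjamini-Hochberg adjustment over all genes and a threshold of 0.05. A fold change on this scale understates the change of low genes. The tables were fitted separately. On simulated counts for the comparison of DKO with WT over 12880 genes, limma recovered 96 of 100 genes changed by 1 log2 unit and 100 of 100 changed by 2, and called 14 unchanged genes. The simulated spread came from WT libraries 2 and 3 and the DKO libraries, without WT library 4. Changed genes were drawn from those with a mean of at least 5 CPM. Recovery and false calls under the wider spread that includes WT library 4 were not measured. The recovered reads went into edgeR 4.0.16 and DESeq2 1.42.0 as alternatives. Further alternatives were other pseudocounts, filters, scalings, variance priors and samples, a correction for GC content and length, and leaving out each library; those without WT library 4 beyond leave-one-out were chosen after seeing the data.

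Gene lists (47, covering the Myc and Mlx network, growth genes, metabolism, protein synthesis, cell cycle, DNA repair, matrix, signalling, interferon, sex-linked genes and markers of other cell types) and the comparison itself were chosen with earlier results of these data known. Named genes were all measured members of the Myc network, Mlx network and Myc-null growth lists, up to 4 called members of each other list with the largest change, members that did not pass where a contrast is described, and the 12 largest rises and 12 largest falls among called genes with groups that did not overlap, a mean of at least 5 CPM in the higher group and no predicted-gene symbol; a few genes that the rule names are not reported here, and genes outside it are marked as chosen after their values were seen. Gene positions were matched to GENCODE vM39 (GRCm39) for 41181 of 41710 genes, and 50-base stretches of its transcripts served to mark genes that share sequence. Promoters came from RefSeq on GRCm38.p6. The label numbers and the library numbers of the columns could not be matched to each other, so libraries are replicates of a group without a pairing.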

Additional observations from a re-analysis of the deposited data

Results flagged for a closer look

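Of the named genes, 20 were called in opposite directions in immortalized and primary cells, with libraries of DKO and WT that did not overlap in either table; 274 genes in all met this. The difference between the tables was not tested, since they were normalized separately, and no test for an outlying value of a single gene was run, since the groups held 3 libraries. Among them were matrix and secreted genes that fell in immortalized DKO cells and rose in primary ones. Given as immortalized against primary, with limma's adjusted p for the primary table, the log2 fold changes were -3.58 against 3.31 (adjusted p = 8.85e-12) for Thbs4, -3.22 against 2.21 (adjusted p = 3.13e-10) for Ptn, -2.06 against 1.91 (adjusted p = 2.29e-08) for Igfbp3 and -3.90 against 0.72 (adjusted p = 1.14e-05) for Postn. Thbs4 in the primary libraries was at 2.26, 2.23 and 2.16 CPM in WT and 30.9, 27.5 and 34.3 CPM in DKO. The choline transporter Slc5a7 was at -2.65 against 2.04 (adjusted p = 1.3e-07). Lower in immortalized and higher in primary cells were also the homeobox genes Hoxc13 (-1.43 against 0.99 (adjusted p = 9.88e-05)) and Hoxc10 (-1.37 against 0.39 (adjusted p = 0.00614)), the lipase Lpl (-0.91 against 0.38 (adjusted p = 0.0061)) and the angiogenic factor Vegfa (-0.42 against 0.71 (adjusted p = 1.06e-06); without WT library 4 its fall was -0.27 (adjusted p = 0.113)). The falls of Hoxc13, Hoxc10 and Igfbp3 were -0.83, -0.79 and -2.90 without WT library 4. In the other direction, a few genes of the cell cycle were higher in immortalized DKO cells and lower in primary ones. These were Ccnd1 (1.98 against -0.64 (adjusted p = 3.18e-07)), Cdc25c (0.54 against -0.82 (adjusted p = 7.35e-06)), Cdc25b (0.45 against -0.66 (adjusted p = 6.52e-06)) and Plk1 (0.37 against -0.95 (adjusted p = 2.63e-08)), with the histone H2ax (0.43 against -0.54 (adjusted p = 0.000143)). In immortalized cells Plk1 and H2ax lost the call under 6 and 7 of 19 alternatives. The cycle lists as a whole did not rise there, with 3 of 28 mitosis genes and 0 of 32 replication genes higher, against 10.4% of all genes tested. Entpd1 was at 3.05 against -0.82 (adjusted p = 0.00158), the pump Abcb1a at 1.08 against -0.70 (adjusted p = 0.000741), the immunoproteasome gene Psmb8 at 1.65 against -0.74 (adjusted p = 0.000119), Grn at 0.87 against -0.18 (adjusted p = 0.0147), the lysosomal glycoprotein Cd68 at 0.63 against -1.74 (adjusted p = 3.45e-05) and the keratin Krt19 at 1.03 against -1.16 (adjusted p = 4.79e-06). The rises of Ccnd1 and Psmb8 were 1.17 and 1.00 without WT library 4.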

How the results depend on the processing

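No paired analysis was possible because the columns carry library numbers that the sources used here do not tie to the labels' replicate numbers. No named gene past the threshold reversed direction under any alternative. Mycl and Klf10, which did not pass, changed sign under at least 1 alternative. The log2 fold change of Mycl was -0.17 with all WT libraries and 0.30 without WT library 4. Without that library the medians of the ATF4, NRF2, collagen, chemokine, fibroblast and neural lists also changed sign. For DKO against WT (2434 genes), 906 passed when only the 6 libraries compared were fitted, and 531 with a log2 fold change of at least 1. Leaving out 1 library gave 1115 to 3248, with 1115 without DKO library 13, 1507 without DKO library 14 and 1401 without DKO library 15; edgeR gave 2393, DESeq2 3003 and the genes shared by the 3 tools 2251. Without WT library 4 the count was 2840, and 2773 with only the groups compared. A log2 fold change of at least 1 left 1415 of 3788 genes against MycKO, 1000 of 3879 against MlxKO and 748 of 6487 in primary cells. Against MlxKO, fitting only the groups compared gave 6011, and leaving out 1 library gave 2352 to 3521, with 2352 without MlxKO library 6, 2401 without MlxKO library 7, 2386 without DKO library 14 and 2539 without DKO library 15. Against MycKO leave-one-out gave 2578 to 3300. Scaling by library totals changed the split against MlxKO from 2094 higher and 1785 lower to 1268 and 3072, which turned the larger share from higher to lower, with a median shift over all genes of -0.156, and in primary cells from 3146 and 3341 to 2481 and 4194. Of 147 named genes past the threshold, 72 passed under every alternative and 75 lost the call under at least 1, 68 of them with only the groups compared and 14 without WT library 4. The cause was not tested. A level under 3 reads, or 0.145 to 0.183 CPM, could not be told from 0 at this depth.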

Other observations

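Of 33 Hox genes tested 2 rose and 3 fell (median log2 fold change -0.13), and without WT library 4, 1 rose and 4 fell, with Hoxc13 and Hoxc10, genes of the posterior HoxC cluster, at -1.43 (SE 0.38, adjusted p = 0.022) and -1.37 (SE 0.37, adjusted p = 0.0239), or -0.83 and -0.79 without WT library 4, and Hoxc10 shares exons with Hoxc5. Of 18 NRF2 targets, genes of the oxidant response, 3 rose and 2 fell, with the same counts without WT library 4 and a median of 0.09 with it and -0.03 without it. Nqo1, a quinone reductase, was at 11.8, 10.5 and 11.6 CPM in the WT libraries and 16.8, 18.6 and 19.9 CPM in the DKO libraries, 0.66 (SE 0.19, adjusted p = 0.0289), and Tkt, transketolase of the pentose phosphate pathway, was at 214, 213 and 192 CPM in the WT libraries and 154, 148 and 149.8 CPM in the DKO libraries, -0.45 (SE 0.11, adjusted p = 0.0124). Of 14 imprinted growth genes 1 rose and 3 fell, and without WT library 4, 1 rose and 5 fell. Of 4 tested adipocyte markers both calls were lower, as were the 2 calls without WT library 4, Fabp4, a fatty acid carrier, at -1.15 (SE 0.25, adjusted p = 0.00804) and Lpl, lipoprotein lipase, at -0.91 (SE 0.20, adjusted p = 0.00985). No neural marker of 3 tested was called, with or without WT library 4 (median -0.12 and 0.14). The kinase Tek, an angiopoietin receptor and 1 of 2 tested endothelial markers, rose by 1.24 (adjusted p = 0.00675), while the endothelial markers Cldn5, Emcn and Tie1 were at 0 in all 6 libraries. Of 5 tested sex-linked genes 2 were called, both Y-linked and lower in DKO, Ddx3y at -2.64 (SE 0.79, adjusted p = 0.0361) and Eif2s3y at -2.28 (SE 0.66, adjusted p = 0.0332). Without WT library 4 all 5 were called lower, and these 2 were at -1.29 (adjusted p = 0.000178) and -1.16 (adjusted p = 0.000851). Xist, the RNA of the inactive X chromosome, named after its values were seen, was at 2114, 1574 and 549.7 CPM in the WT libraries and 1133, 1156 and 790.0 CPM in the DKO libraries, -0.27 (adjusted p = 0.627) with all WT libraries and -0.85 (adjusted p = 0.00377) without WT library 4.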
